A study of Homo sapiens with 14 samples.

Results

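The step from 5 to 7.5 µM of the GSK3 inhibitor CHIR99021 (CHIR) was examined in day 11 cultures on the way to midbrain dopamine neurons. It compares the 2 RNA-seq libraries of cultures whose labels give a 7.5 µM boost of CHIR at day 11 with the 2 whose labels give 5 µM, 4 of the 14 libraries of the series, paired by replicate number. All 8 day 11 libraries, with the arms at 0.7 and 3 µM, entered the fit, so that they share 1 estimate of the spread. Every value comes from 1 cell line, the established human embryonic stem cell line H9, also called WA-09. Per the labels, the boosted and unboosted arms alike had 0.7 µM CHIR with Sonic hedgehog protein (SHH C25II), LDN and SB431542 from day 0, with a Rock inhibitor at plating. The arms' own CHIR concentrations (0.7, 3, 5 or 7.5 µM) began on day 4. They ended on day 10 per the growth protocol and on day 9 per the series text. SHH, LDN and SB431542 were withdrawn on day 7, and on day 10 all arms changed to a medium with 3 µM CHIR, BDNF, GDNF, TGFβ3, ascorbic acid and dibutyryl cAMP.

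CHIR blocks GSK3, the kinase that marks β-catenin for destruction, and so turns on WNT target genes through TCF and LEF factors. In the early neural tube, WNT signalling sets front to back position, shapes the midbrain-hindbrain boundary, favours dorsal over ventral fates and drives progenitor division. Midbrain dopamine neurons arise from the floor plate, the ventral midline that SHH induces and that LMX1A and FOXA2 mark. The study's title asks how WNT activation in phases serves the making of such neurons, and the comparison shows what the highest concentration added to the one below it.

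Gene counts came to 33.67 and 32.08 M in 7.5 µM replicates 1 and 2, and to 20.77 and 34.24 M in 5 µM replicates 1 and 2. The composition of the libraries differed too. Ribosomal protein genes took 6.66% and 4.63% of gene counts at 7.5 µM, against 16.6% and 6.66% at 5 µM, and the mitochondrial genome took 4.71% and 3.88%, against 8.69% and 3.57%. On the first principal component, which held 55.9% of the variance, the other replicate 1 libraries lay between −107 and −97.3 and every replicate 2 library between 69.6 and 84.7, while 7.5 µM replicate 1 lay at −2.13. It thus stood apart from the replicate 1 libraries of the other doses, and every pairing of replicate 1 carries that difference. The labels do not say that replicates were separate cultures, so the spread behind each p-value may be technical and covers these libraries alone. These are bulk samples, in which fewer cells of a type and less RNA per cell cannot be told apart.

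Of 18709 genes tested with edgeR's quasi-likelihood test, 603 (3.22%) were higher at 7.5 µM and 618 (3.3%) were lower, at a Benjamini-Hochberg adjusted p under 0.05 with the replicate number as a block. All of them had the same sign in both replicate pairs, as did 11823 of the 17488 genes that were not called. The call used these same pairs, so much of this agreement follows from it. The median log2 fold change over all genes tested was 0.06. Without the block, 0 genes passed, and 1168 had an unadjusted p under 0.05. The count also rested on the 5 µM libraries. Leaving out 5 µM replicate 1 gave 30 genes and leaving out 5 µM replicate 2 gave 5, while dropping 7.5 µM replicate 1 gave 991 and dropping 7.5 µM replicate 2 gave 5828. In each of these refits the arm left with 1 library is assumed to vary like the others. Of the 67 genes named here that passed, 9 also passed without 5 µM replicate 1, namely FGFR3, GRM4, DLK1, H19, ZIC1, MFNG, EGLN3, GPR4 and ICAM5, and 4 without 5 µM replicate 2, the first 4 of these. "Rose" and "fell" are used below for genes that passed the fit with the block and all 8 libraries. Counts of list members stand beside the shares over all genes tested, 3.22% higher and 3.3% lower.

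The ratio of 7.5 to 5 µM also followed gene composition. In the fifth of genes with the lowest GC content (median 38.6%), the median log2 ratio was 0.59 in the replicate 1 pair and 0.20 in the replicate 2 pair. In the fifth with the highest (median 61.2%) it was −0.51 and −0.52. Over quintiles of exonic length it ran from −0.57 to 0.59 in the replicate 1 pair and from −0.11 to 0.085 in the replicate 2 pair. The genes that rose had a median GC content of 42.3% and a median exonic length of 6313 bases, and those that fell 59.6% and 2910 bases. After a correction for GC content and length, chosen after seeing this trend, 318 of 18206 genes (1.75%) were higher and 425 (2.33%) lower. Of these, 240 and 268 were also among the genes that rose and fell without it. Where a gene named below lost its call after the correction, this is stated with the gene.

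**Figure D1:**
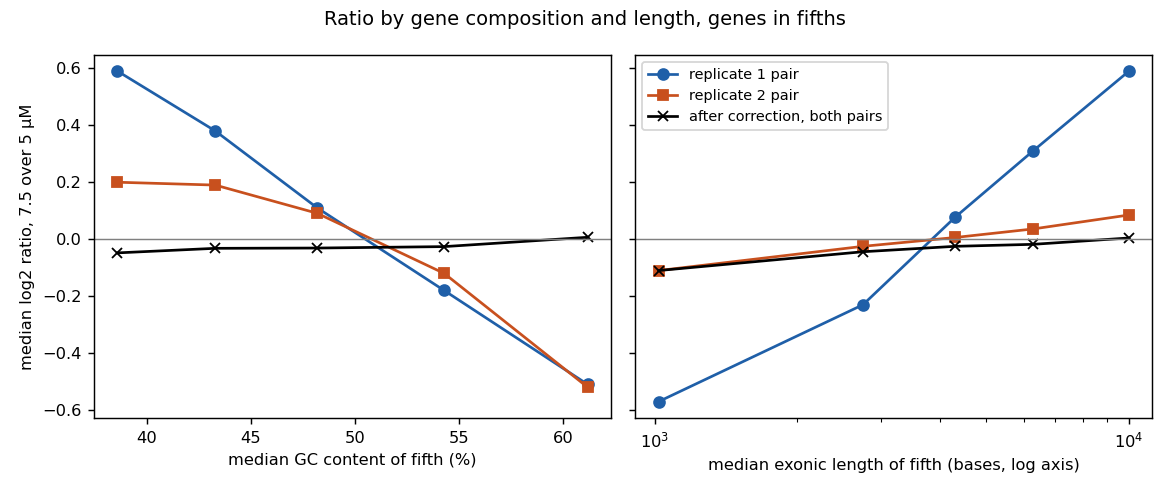
Median log2 ratio of 7.5 over 5 µM CHIR (vertical axis) in quintiles of genes by GC content in percent (left) and by exonic length in bases on a log axis (right), for the replicate 1 pair (blue circles), the replicate 2 pair (orange squares) and the fit of both pairs after correction (black crosses). The trend with GC content is seen in both pairs, the trend with length is steep in the replicate 1 pair, and the corrected medians lie between −0.11 and 0.0068.

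4 genes passed in every one of 6 refits, namely the 4 without 1 library each, the GC and length correction and DESeq2 with the block, among the 81 genes named by the rule given with the processing. They are FGFR3, GRM4, DLK1 and H19, and all were lower at 7.5 µM. The fit without the replicate block is not among these 6, and 0 genes passed in it. FGFR3 (ENSG00000068078.13), a receptor for fibroblast growth factors, had 3.46 and 3.72 CPM (counts scaled to library size) at 7.5 µM, against 33.2 and 41.8 CPM at 5 µM, a 10.4-fold lower level (log2 fold change −3.38 ± 0.30 SE, adjusted p = 0.00429). The arms stood about as far apart in one pair as in the other, at log2 ratios of −3.25 and −3.48. FGFR3 had 75.2 and 84.1 CPM at 0.7 µM and 105 and 70.2 CPM at 3 µM, so both 7.5 µM libraries lay below all 6 others.

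GRM4 (ENSG00000124493.8), a metabotropic glutamate receptor that lowers cAMP, had 0.266 and 0.532 CPM at 7.5 µM, against 7.38 and 9.56 CPM at 5 µM (log2 fold change −4.41 ± 0.47, adjusted p = 0.00993). DLK1 (ENSG00000185559.9), a membrane protein of the Notch ligand kind that is imprinted and also found in dopamine neurons, had 9.20 and 19.9 CPM, against 69.7 and 234 CPM (−3.23 ± 0.29, adjusted p = 0.00429). H19 (ENSG00000130600.11), an imprinted long noncoding RNA whose exon holds the precursor of a microRNA, had 5.88 and 13.1 CPM, against 64.9 and 101 CPM (−3.19 ± 0.31, adjusted p = 0.00705). Each of the 3 was below its level in all 6 libraries of the lower doses. After the GC and length correction the log2 fold changes of FGFR3, GRM4, DLK1 and H19 were −2.89, −4.18, −3.13 and −2.55.

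**Figure D2:**
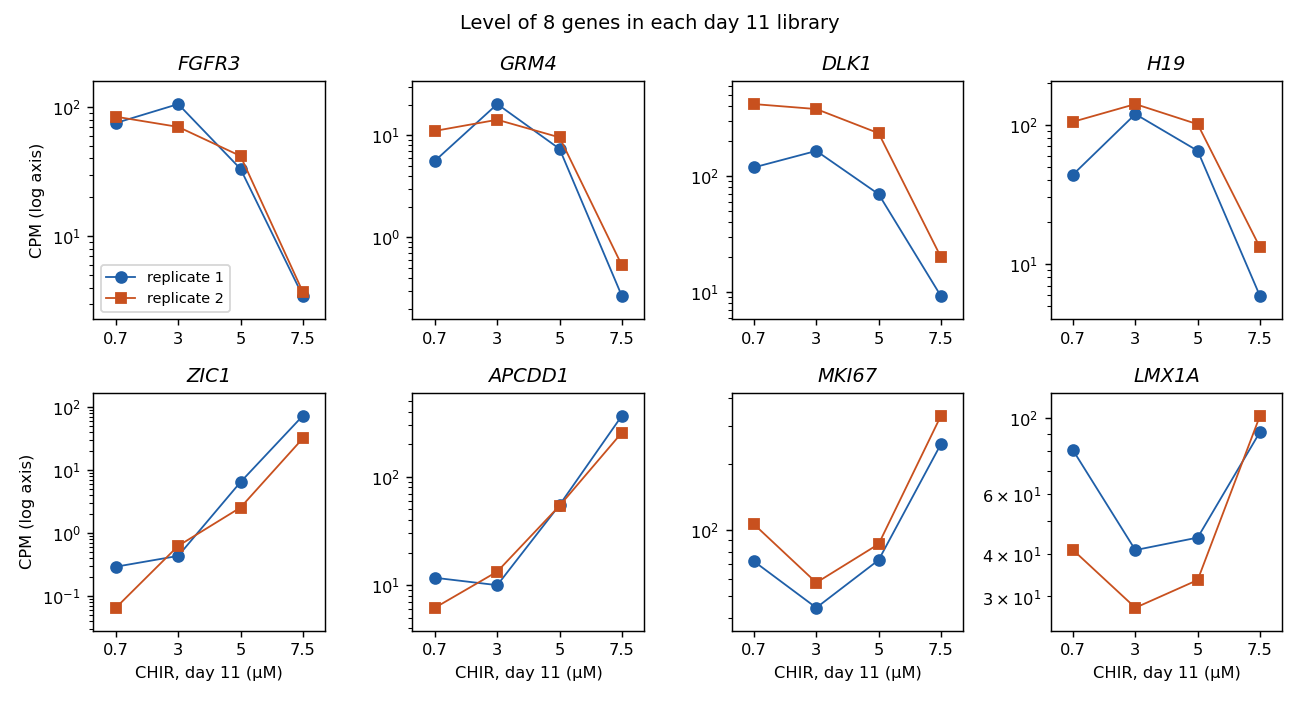
TMM-scaled CPM on a log axis (vertical) of 8 genes by CHIR concentration at day 11 (horizontal, in µM), with replicate 1 as blue circles, replicate 2 as orange squares and lines joining libraries of 1 replicate number. FGFR3, GRM4, DLK1 and H19 are at their lowest at 7.5 µM, ZIC1 and APCDD1 are also higher at 5 µM than at 3 µM, and MKI67 and LMX1A are higher at 7.5 µM than in every other library.

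Genes of cell division were the group with the most members higher at 7.5 µM. Of 25 genes of mitosis and G2, 18 rose (72%, against 3.22% of all genes) and none fell, with a median log2 fold change of 1.15. All 25 had a positive fold change. Their summed level was 3310 and 3500 CPM at 7.5 µM, against 1640 and 1370 CPM at 5 µM, with 1290 and 1560 CPM at 0.7 µM and 1160 and 1030 CPM at 3 µM. In 19 of the 25, both 7.5 µM libraries were above all 6 libraries of the lower arms, which held for 13% of all genes. After the GC and length correction 11 were higher, 10 of them among the 18, and the median was 0.95. Dropping 7.5 µM replicate 1 left 15 and dropping 7.5 µM replicate 2 gave 19. With 5 µM replicate 1 or 2 left out, 0 passed, at medians of 1.37 and 0.87.

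MKI67 (ENSG00000148773.8), which codes for the proliferation marker Ki-67, had 248 and 333 CPM at 7.5 µM, against 73.2 and 86.6 CPM at 5 µM (log2 fold change 1.85 ± 0.24, adjusted p = 0.0111). That is a 3.60-fold higher level, with log2 ratios of 1.76 and 1.94 in the 2 pairs. ASPM, a spindle pole protein, had 58.3 and 115 CPM, against 11.0 and 24.7 CPM (2.32 ± 0.27, adjusted p = 0.00993). BUB1B, a kinase of the spindle checkpoint, had 171 and 183 CPM, against 42.5 and 61.6 CPM (1.80 ± 0.26), and its reads may be shared with the overlapping BUB1B-PAK6 entry. CENPF, a kinetochore protein, had 373 and 405 CPM, against 102 and 129 CPM (1.77 ± 0.26). The arms did not overlap for any of these, and after the correction the log2 fold changes of MKI67, ASPM, BUB1B and CENPF were 1.51, 1.73, 1.44 and 1.21, all passing. At the other end stood CDC20, an activator of the anaphase ligase, with 134 and 71.2 CPM against 129 and 48.1 CPM (0.32, adjusted p = 0.412), and AURKB, with 71.2 and 38.9 CPM against 78.9 and 22.4 CPM (0.33, adjusted p = 0.450).

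Promoters of mitosis genes often carry the CHR element, bound by the DREAM and MuvB complexes, near CCAAT boxes, bound by NF-Y. The letters TTTGAA (CHR) and CCAAT were searched on both strands of the 250 bases before each start in RefSeq's promoter table (GRCh38.p14). Of the 25 mitosis and G2 genes, 20 had an entry, and 12 of these (60%) held TTTGAA and 17 (85%) held CCAAT, against 13.6% and 33% of all 27305 promoters in the table. Of the 18 that rose, 14 had an entry, and 8 of these (57.1%) held TTTGAA, a share near that of the whole list. CENPF, TOP2A and CCNB1 are among those that rose with no TTTGAA in the last 120 bases. TOP2A and CCNB1 no longer passed after the GC and length correction (adjusted p = 0.0711 and 0.0651). Among all genes tested that had an entry, TTTGAA was in 16.1% of 416 that rose, 5.76% of 382 that fell and 8.62% of 11128 tested. CCAAT was in 38.2%, 30.4% and 34.5% of the same sets. The genes that rose also had a lower median GC content than those that fell (42.3%, against 59.6%). These shares were not matched for GC content, and its part in them was not tested. The TCF and LEF core CTTTGAT was in 1.44% of those that rose, 0.785% of those that fell, 1.23% of those tested and 2.28% of all promoters. A match is a description of the letters and not a site. The last 120 bases before the start of 4 of the genes that rose are shown because they carry TTTGAA at different distances, with TTTGAA and CCAAT in capitals on either strand:
MKI67, chr10:128126424-128126543, minus strand: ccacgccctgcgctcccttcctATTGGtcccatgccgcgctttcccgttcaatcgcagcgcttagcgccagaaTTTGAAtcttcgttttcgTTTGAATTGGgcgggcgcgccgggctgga
KIF11, chr10:92593010-92593129, plus strand: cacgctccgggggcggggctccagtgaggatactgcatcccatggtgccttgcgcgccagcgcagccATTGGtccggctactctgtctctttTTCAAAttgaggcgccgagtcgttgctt
KIF23, chr15:69414229-69414348, plus strand: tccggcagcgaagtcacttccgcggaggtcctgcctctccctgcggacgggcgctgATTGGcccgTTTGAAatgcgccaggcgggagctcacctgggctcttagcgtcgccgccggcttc
BUB1B, chr15:40160949-40161068, plus strand: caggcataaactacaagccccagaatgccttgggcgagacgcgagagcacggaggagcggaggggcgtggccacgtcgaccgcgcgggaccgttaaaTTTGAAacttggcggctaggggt
In MKI67, TTTGAA begins 47 and 29 bases before the start, and the second copy overlaps a reverse CCAAT box. It begins 28 bases before the start in KIF11, on the opposite strand, 55 in KIF23 and 23 in BUB1B, which has no CCAAT in this stretch. KIF11, a spindle motor, had 122 and 134 CPM at 7.5 µM, against 45.4 and 43.1 CPM at 5 µM. KIF23, a motor of cytokinesis, had 92.9 and 89.9 CPM, against 28.2 and 34.9 CPM.

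**Figure D3:**
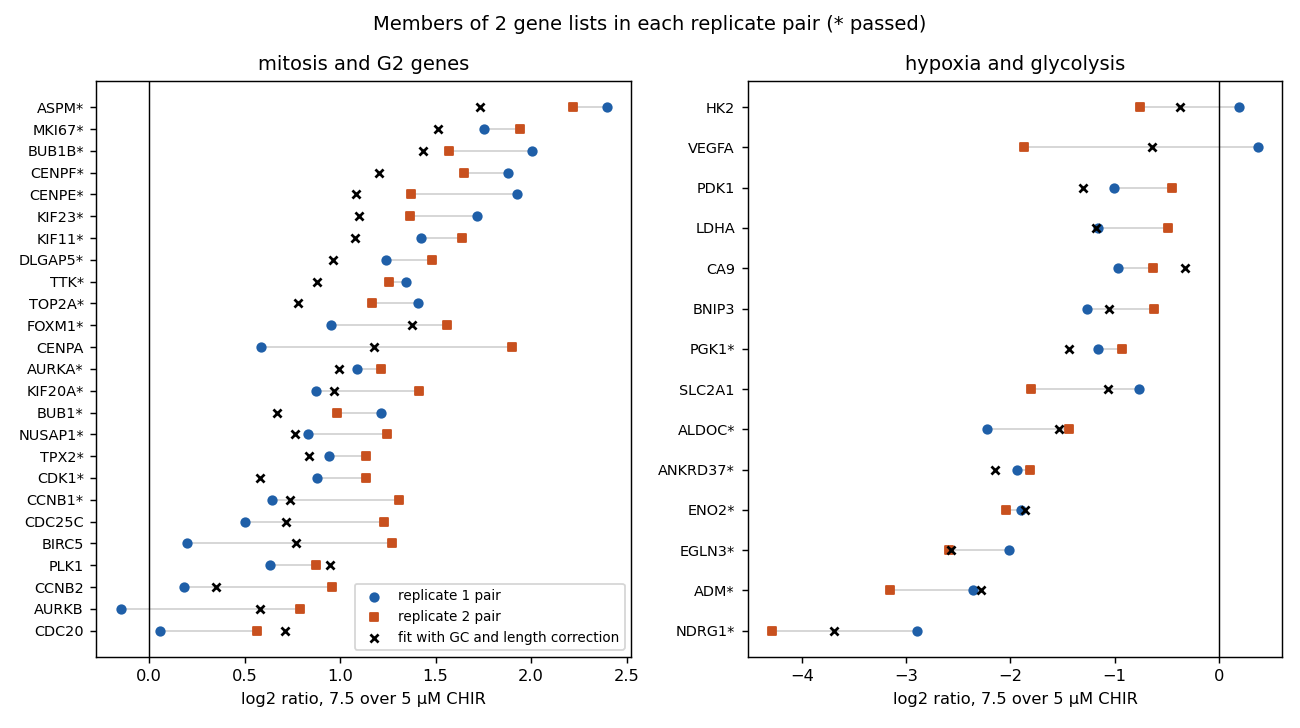
Log2 ratio of 7.5 over 5 µM CHIR (horizontal) for each tested member of the lists of mitosis and G2 genes (left) and of hypoxia and glycolysis genes (right), in the replicate 1 pair (blue circles), the replicate 2 pair (orange squares) and the fit with GC and length correction (black crosses). Names with an asterisk passed in the fit without that correction, 18 of 25 on the left and 7 of 14 on the right.

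Of 24 genes of DNA replication, 6 rose (25%, against 3.22% of all genes) and none fell, with a median log2 fold change of 0.76. After the correction 7 of 23 were higher, 4 of them among the 6. CCNE2, the cyclin that opens S phase, had 22.4 and 15.5 CPM at 7.5 µM, against 3.04 and 3.53 CPM at 5 µM (2.52 ± 0.34, adjusted p = 0.0117), and it overlaps INTS8 on the other strand. MCM4, a subunit of the replicative helicase, had 308 and 235 CPM, against 112 and 116 CPM (1.25 ± 0.25, adjusted p = 0.0255). GINS1, another helicase subunit, had 101 and 64.3 CPM, against 38.3 and 27.8 CPM, and MCM10, an initiation factor, had 67.3 and 49.1 CPM, against 23.6 and 22.3 CPM. The arms of these 4 genes did not overlap, and no replication gene passed without either 5 µM library. BRCA2, a DNA repair gene among the 12 of largest rise, had 30.4 and 49.1 CPM, against 2.08 and 13.5 CPM (2.93 ± 0.48, adjusted p = 0.0168).

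Among 16 regulators of G1 and MYC genes, 2 rose and 3 fell, against 3.22% and 3.3% of all genes. After the correction 2 were lower and none higher, against 2.33% and 1.75% of all genes. CDK6, a kinase that drives G1, rose, with 74.6 and 103 CPM at 7.5 µM, against 25.4 and 31.8 CPM at 5 µM (1.62 ± 0.28, corrected 1.08 with adjusted p = 0.0764). RB1, the retinoblastoma gene, rose as well (corrected adjusted p = 0.0761). The genes that fell were CDKN1C and CDKN1A, which code for the CDK inhibitors p57 and p21, and the D cyclin CCND3. CDKN1C had 23.3 and 40.4 CPM, against 120 and 144 CPM (−2.06 ± 0.33, adjusted p = 0.0162), and CCND3 had 7.87 and 8.75 CPM, against 30.7 and 30.4 CPM (−1.88 ± 0.33, adjusted p = 0.0199). CDKN1A had 58.9 and 70.9 CPM, against 182 and 306 CPM, and with an adjusted p of 0.0485 it lost its call in each refit without 1 library and after the correction. CCND1, the D cyclin that WNT signalling is known to raise, had 126 and 177 CPM, against 132 and 121 CPM (0.27 ± 0.33, adjusted p = 0.619). None of the 16 passed without either 5 µM library.

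Most direct feedback genes of WNT signalling did not pass. Of 17 genes in this list, 3 rose, against 3.22% of all genes, and 0 fell, with a median log2 fold change of 0.29. AXIN2, the scaffold of the β-catenin destruction complex, had 235 and 270 CPM at 7.5 µM, against 148 and 239 CPM at 5 µM (0.45 ± 0.31, adjusted p = 0.362). LEF1, a nuclear effector, had 163 and 188 CPM, against 147 and 165 CPM (0.17 ± 0.26, adjusted p = 0.710), and SP5, a repressor that WNT induces, had 134 and 101 CPM, against 112 and 73.8 CPM (0.34 ± 0.47, adjusted p = 0.670). These p-values do not show that the levels were alike. The libraries of the arms overlapped for AXIN2, LEF1 and SP5. Over the series, AXIN2 had 24.7 and 69.0 CPM at 0.7 µM and 116 and 161 CPM at 3 µM.

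The WNT genes that rose were APCDD1, LGR5 and TCF7. APCDD1, a membrane inhibitor of WNT, had 367 and 257 CPM at 7.5 µM, against 55.1 and 54.1 CPM at 5 µM (2.49 ± 0.33, adjusted p = 0.0112, corrected 2.49). Its levels at 0.7 µM, 11.7 and 6.18 CPM, and at 3 µM, 9.99 and 13.3 CPM, were below both. LGR5, a receptor for R-spondins, had 2.42 and 3.48 CPM, from 91 and 131 counts, against 0.0563 and 0.135 CPM at 5 µM, from 1 and 5 counts (4.84 ± 0.61, adjusted p = 0.00993). TCF7, a nuclear effector, had 23.2 and 15.2 CPM, against 4.22 and 5.87 CPM (1.81 ± 0.44, adjusted p = 0.0417), and overlaps SKP1 on the other strand.

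Of 15 WNT ligands and R-spondins tested, 5 rose, against 3.22% of all genes, and none fell, and the median log2 fold change was 0.95. After the correction WNT5A no longer passed and WNT5B did, so that the count was again 5. RSPO1, an R-spondin that strengthens WNT signalling through LGR receptors, had 8.51 and 9.23 CPM at 7.5 µM, against 1.35 and 1.72 CPM at 5 µM (2.53 ± 0.40, adjusted p = 0.0153). RSPO3 had 1.06 and 3.48 CPM, against 0.113 and 0.566 CPM (2.68 ± 0.56, adjusted p = 0.0297). WNT2B, which overlaps ST7L on the other strand, had 2.42 and 6.36 CPM, against 0.338 and 0.781 CPM (2.96 ± 0.46, adjusted p = 0.0140). The arms did not overlap in any of the 3, and the levels were low beside APCDD1. WNT8B was counted 65 and 36 times at 7.5 µM, against 0 and 2 times at 5 µM, a ratio of 36.9 with a 95% interval of 9.94 to 309 for counting error only. WNT5A rose too (1.46, adjusted p = 0.045, corrected 1.02 with adjusted p = 0.122). It had 39.3 and 36.1 CPM at 7.5 µM and 47.2 and 23.7 CPM at 0.7 µM, so it was not above all lower arms. RSPO2, with 3.86 and 6.81 CPM against 7.94 and 9.40 CPM (−0.74, adjusted p = 0.161), did not pass. No WNT ligand, R-spondin or WNT feedback gene passed without either 5 µM library, and without 7.5 µM replicate 1 the counts were 4 and 2.

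Several dorsal genes rose. Of 13 dorsal neural tube and roof plate genes tested, 5 rose (38.5%, against 3.22% of all genes) and none fell, with a median log2 fold change of 1.07. After the correction 4 were higher, against 1.75% of all genes. The summed level was 483 and 491 CPM at 7.5 µM, against 368 and 501 CPM at 5 µM, so it was not higher in the replicate 2 pair. ZIC1 (ENSG00000152977.5), a zinc finger factor of the dorsal neural tube, had 72.4 and 31.7 CPM at 7.5 µM, against 6.42 and 2.53 CPM at 5 µM, an 11.8-fold higher level (3.56 ± 0.41, adjusted p = 0.00993). Its neighbour ZIC4, which lies on the opposite strand and overlaps it, had 12.6 and 8.22 CPM, against 1.91 and 0.781 CPM (3.04 ± 0.43, adjusted p = 0.0119), and reads of the 2 genes may be shared since the strand setting is not given in the sources used here. PAX7, a factor of the dorsal midbrain, had 8.01 and 4.41 CPM, against 0.957 and 1.19 CPM (2.67 ± 0.69, adjusted p = 0.0486, corrected 2.65 with adjusted p = 0.0619). OLIG3, found in dorsal progenitors, had 11.3 and 2.95 CPM, against 2.14 and 0.566 CPM (adjusted p = 0.0190), and it was not above all lower arms. ZIC5 rose as well. ZIC2, with 89.2 and 86.0 CPM against 57.8 and 120 CPM, and the BMP genes of the list did not pass. Without 5 µM replicate 1 ZIC1 alone of the list passed, and without 5 µM replicate 2 none did.

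ZIC1 was at 0.291 and 0.0651 CPM at 0.7 µM and 0.432 and 0.624 CPM at 3 µM, so its level was already higher at 5 µM (5 over 0.7 µM: log2 fold change 4.75, adjusted p = 0.00404). None of 10 genes of the BMP response passed, with a median of −0.20.

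At the midbrain-hindbrain boundary, 3 of 10 genes rose, against 3.22% of all genes, and none fell. CNPY1, a gene of FGF signalling at the boundary in zebrafish, had 14.0 and 3.16 CPM at 7.5 µM, against 0.957 and 0.377 CPM at 5 µM (3.48 ± 0.43, adjusted p = 0.00993). EN2, an engrailed factor, had 4.87 and 2.21 CPM, against 0.507 and 0.350 CPM (2.96 ± 0.56, adjusted p = 0.0229). PAX5 had 64.6 and 22.7 CPM, against 11.0 and 7.54 CPM (2.18 ± 0.56, adjusted p = 0.0479), and lost its call after the correction (adjusted p = 0.0620). EN1, the other engrailed gene and a marker of midbrain dopamine progenitors, had 113 and 84.6 CPM, against 76.8 and 26.3 CPM (1.05 ± 0.52, adjusted p = 0.211). The signals of the boundary itself, FGF8, FGF17 and FGF18, had log2 fold changes of 0.01, 0.30 and −0.01 and did not pass. None of the 10 FGF feedback genes passed, while all had a positive fold change, with a median of 0.69. That median was 0.13 without 7.5 µM replicate 1, and 1.19 with 6 genes passing without 7.5 µM replicate 2. Without 7.5 µM replicate 1, CNPY1 alone of the boundary genes passed, and without either 5 µM library none did.

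The markers of midbrain floor plate were present in both arms. For the list counts below, the shares over all genes tested were 3.22% higher and 3.3% lower. LMX1A (ENSG00000162761.10) had 91.2 and 102 CPM at 7.5 µM, against 44.6 and 33.5 CPM at 5 µM (1.35 ± 0.29, adjusted p = 0.0325, corrected 1.30), and both values at 7.5 µM were above all 6 lower libraries. Its paralog LMX1B had 20.3 and 13.1 CPM, against 3.44 and 3.90 CPM (2.04 ± 0.50, adjusted p = 0.0425). At 0.7 µM LMX1B had 13.7 and 2.80 CPM, so it was not above all lower arms. FOXA2 had 89.2 and 71.2 CPM, against 125 and 57.9 CPM (−0.05 ± 0.30, adjusted p = 0.926), with the pairs on opposite sides of 0. OTX2, which marks forebrain and midbrain, had 307 and 290 CPM, against 160 and 142 CPM, at an adjusted p of 0.0511. SHH had 19.9 and 27.4 CPM, against 16.8 and 12.4 CPM (0.84 ± 0.53, adjusted p = 0.325), and 278 and 51.2 CPM at 0.7 µM. In all, 2 of 12 floor plate genes rose and 1 fell, and none passed without either 5 µM library. Of 15 hedgehog pathway genes, GLI3 alone passed, a factor that mainly represses hedgehog targets, with 114 and 107 CPM, against 24.2 and 37.5 CPM (1.90 ± 0.31, adjusted p = 0.0168).

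Genes of regions in front of and behind the midbrain mostly did not pass. None of 10 tested forebrain and diencephalon genes did, and SIX6 and RAX were too low to be tested. PAX6 had 0.186 and 0.585 CPM at 7.5 µM, against 0.225 and 2.10 CPM at 5 µM (−1.50 ± 0.75, adjusted p = 0.214). Of 8 tested hindbrain and HOX genes 1 rose, against 3.22% of all genes. This was HOXB3, which was counted 37 and 12 times at 7.5 µM and 0 times in both 5 µM libraries. It was at least 11.9-fold higher, against a floor of 3 counts over the 5 µM libraries, and its entry overlaps HOXB4, HOXB6 and HOXB antisense genes. None of 7 caudal and mesodermal genes passed. T, the brachyury gene, had 10.3 and 18.4 CPM, against 3.49 and 6.41 CPM (1.55 ± 0.51, adjusted p = 0.0844), and CDX2 had 10.6 and 9.01 CPM, against 11.8 and 3.96 CPM (0.57, adjusted p = 0.426).

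Few genes of neurons passed, beside shares over all genes tested of 3.22% higher and 3.3% lower. All 12 proneural factors had a positive fold change, with a median of 1.67, and 3 rose, against 3.22% of all genes. NEUROG1, a bHLH factor that starts neurogenesis, had 3.56 and 1.99 CPM at 7.5 µM, against 0.338 and 0.162 CPM at 5 µM (3.49 ± 0.59, adjusted p = 0.0174). NEUROD4 had 0.638 and 2.47 CPM, against 0.0563 and 0.404 CPM, and EBF3 had 2.79 and 3.38 CPM, against 0.338 and 0.592 CPM. All 3 were low, and at 0.7 µM EBF3 had 2.82 and 1.69 CPM. Of 17 general neuronal genes, ELAVL2, an RNA-binding protein of young neurons, alone rose, with 22.9 and 25.8 CPM, against 5.46 and 11.8 CPM (1.63 ± 0.33, adjusted p = 0.0281). TUBB3 had 26.4 and 13.0 CPM, against 24.1 and 29.2 CPM (−0.46 ± 0.34, adjusted p = 0.400). TH, PITX3, ALDH1A1 and KCNJ6 were too low to be tested, NR4A2 had 1.54 and 1.01 CPM, against 0.845 and 0.969 CPM (0.45, adjusted p = 0.550), and DLK1 was the 1 of 8 dopamine neuron genes that passed. Of 7 tested genes of GABA and glutamate neuron specification 1 rose and none fell, with a median of −0.06 and 3 positive fold changes. The one that rose was TAL2, a factor of midbrain GABA neurons, which had 8.48 and 10.3 CPM, against 1.01 and 1.53 CPM (2.89 ± 0.48, adjusted p = 0.0173). None of these genes but DLK1 passed without either 5 µM library.

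Of 15 neural progenitor genes, 2 rose and none fell, against 3.22% and 3.3% of all genes. SOX2 had 188 and 195 CPM at 7.5 µM, against 155 and 272 CPM at 5 µM (−0.07 ± 0.29, adjusted p = 0.897). NR2F2, a nuclear receptor, had 112 and 118 CPM, against 42.1 and 58.5 CPM (1.20 ± 0.24, adjusted p = 0.0278), and PROM1 also rose (corrected adjusted p = 0.108). PROM1 had 27.7 and 11.4 CPM at 7.5 µM and 40.1 and 4.56 CPM at 0.7 µM, so it was not above all lower arms. In the Notch pathway 1 of 14 genes passed: MFNG, a fringe glycosyltransferase that modifies Notch receptors, fell to 9.97 and 10.7 CPM, against 39.8 and 49.1 CPM (−2.10 ± 0.28, adjusted p = 0.0112). It passed without 5 µM replicate 1 and not without 5 µM replicate 2. HES7, a bHLH repressor of the Notch target family, had 1.57 and 1.17 CPM, against 10.8 and 12.8 CPM (−3.07 ± 0.45, adjusted p = 0.0119).

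Of 18 glutamate and GABA receptor genes, GRM3 alone rose and GRM4 alone fell, against 3.22% and 3.3% of all genes. Of 6 tested glia genes SLC1A3 alone rose, with a list median log2 fold change of 0.07 and 3 positive fold changes. After the correction none of the 6 passed, at a median of −0.25. SLC1A2 and NFIA, also given here, are not members of that list. SLC1A2, a glutamate transporter of astrocytes and radial glia, had 5.08 and 6.99 CPM at 7.5 µM, against 0.507 and 1.13 CPM at 5 µM (2.92 ± 0.43, adjusted p = 0.0119). SLC1A3, the other main glial transporter, had 13.4 and 21.1 CPM, against 2.70 and 10.7 CPM (1.56 ± 0.36, adjusted p = 0.0383, corrected 1.15 with adjusted p = 0.0711). At 0.7 µM SLC1A3 had 11.7 and 19.6 CPM, so it was not above all lower arms. GRM3, a metabotropic receptor, had 8.99 and 4.63 CPM, against 0.619 and 1.19 CPM (2.69 ± 0.67, adjusted p = 0.0450, corrected 2.57 with adjusted p = 0.0597). NFIA, a factor of gliogenesis, had 8.59 and 1.89 CPM, against 0.732 and 0.566 CPM (2.67 ± 0.56, adjusted p = 0.0297, corrected 2.09 with adjusted p = 0.0520), and 3.74 and 1.15 CPM at 0.7 µM, so it was not above all lower arms. GFAP, S100B, SOX10 and OLIG1 were too low to be tested.

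Hypoxia and glycolysis genes were the list with the largest share of members lower at 7.5 µM. Of 14 genes, 7 fell (50%, against 3.3% of all genes) and none rose, with a median log2 fold change of −1.09, and 7 were lower after the correction, 6 of them among the same genes, with a median of −1.37. The summed level was 2070 and 3540 CPM at 7.5 µM, against 4490 and 7650 CPM at 5 µM, with 2490 and 6240 CPM at 0.7 µM and 4810 and 8160 CPM at 3 µM. The replicate 2 library was thus higher than replicate 1 at each dose, and the 7.5 µM sums overlapped those of the 0.7 µM arm. The 7.5 µM libraries were below all 6 others for 3 of the 14 genes, which held for 9.7% of all genes. Leaving out 7.5 µM replicate 1 gave 7 and leaving out 7.5 µM replicate 2 gave 10. With 5 µM replicate 1 left out 1 passed, and with 5 µM replicate 2 left out 0 did. The letters ACGTG, the core bound by HIF, were searched after these values were seen and were in 8 of 12 list promoters with an entry, against 18.7% of all promoters. Among all genes tested that had an entry, ACGTG was in 23% of those that fell, 19.5% of those that rose and 22.9% of those tested. The share in the list therefore describes its members and was not a trait of the genes that fell.

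NDRG1, a stress gene that low oxygen raises, had 3.48 and 8.24 CPM at 7.5 µM, against 26.1 and 162 CPM at 5 µM (−3.49 ± 0.66, adjusted p = 0.0229). ADM, a vasodilator peptide, had 5.96 and 13.8 CPM, against 30.6 and 123 CPM (−2.71 ± 0.47, adjusted p = 0.0190, corrected −2.28 with adjusted p = 0.0510). EGLN3, a prolyl hydroxylase that acts on HIF, had 1.44 and 8.08 CPM, against 5.91 and 48.8 CPM (−2.36 ± 0.32, adjusted p = 0.0117). In EGLN3 the arms overlapped across replicate numbers, while the pair ratios were −2.02 and −2.59. ENO2, an enolase, had 79.8 and 172 CPM, against 298 and 711 CPM (−1.97 ± 0.30, adjusted p = 0.0136). PGK1, ALDOC and ANKRD37 also fell. VEGFA, with 62.7 and 88.5 CPM against 48.2 and 323 CPM, and SLC2A1, with 338 and 552 CPM against 577 and 1928 CPM, did not pass. NDRG1 at 0.7 µM had 6.31 and 173 CPM.

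In the other stress lists few members passed, beside shares over all genes tested of 3.22% higher and 3.3% lower. Of 12 p53 targets 2 fell, CDKN1A and BBC3, a cell death gene with 6.81 and 3.27 CPM at 7.5 µM, against 16.1 and 13.0 CPM at 5 µM (−1.59 ± 0.41, adjusted p = 0.0479), and neither passed after the correction. Of 12 genes of the integrated stress response 1 rose, the serine synthesis enzyme PSAT1, with 698 and 253 CPM, against 212 and 138 CPM (1.38 ± 0.36, adjusted p = 0.0491, corrected adjusted p = 0.0803). None of 13 cholesterol synthesis genes passed.

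**Figure D4:**
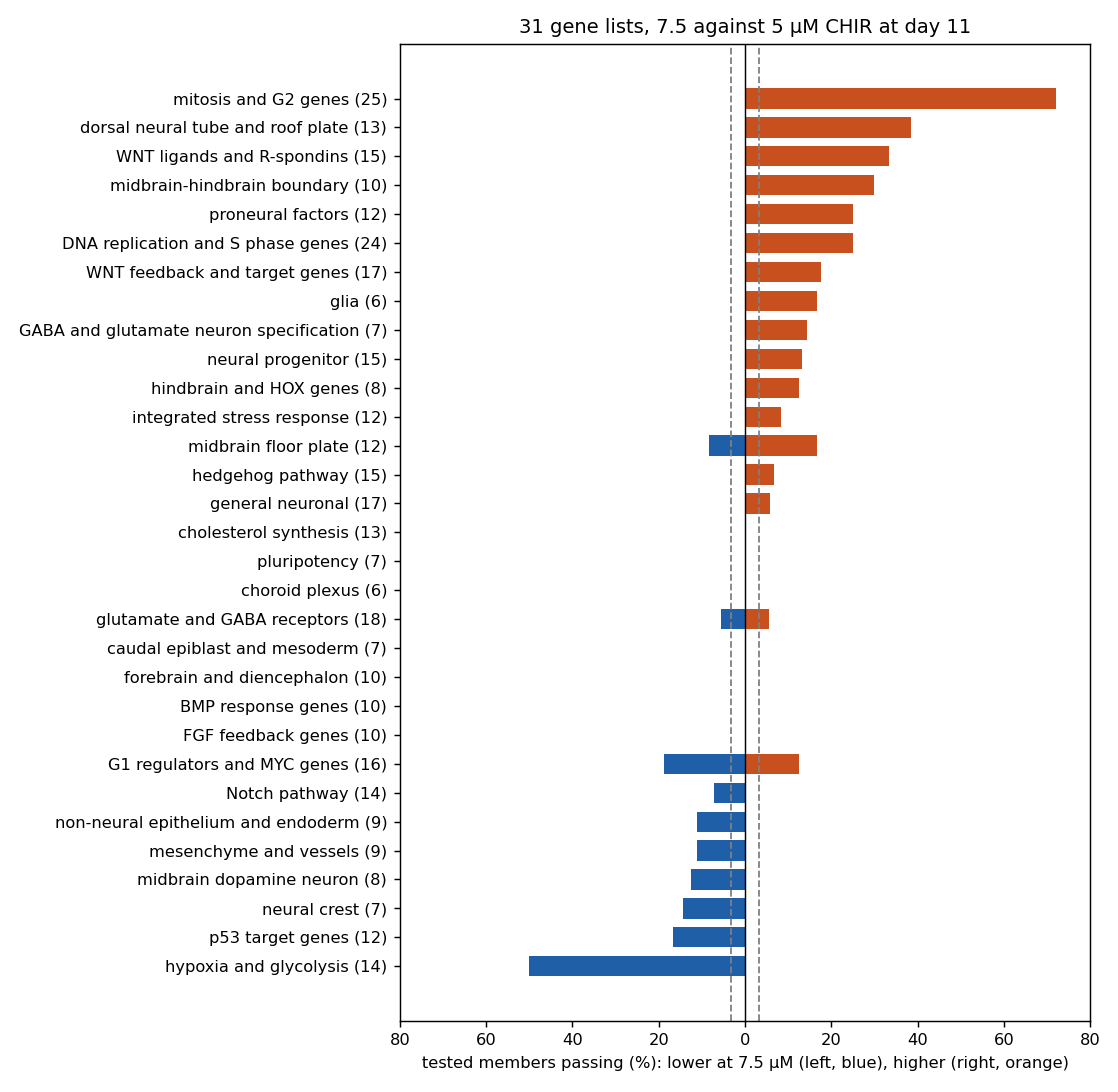
Share of the tested members of 31 gene lists (number tested in brackets) that were lower (blue, to the left) or higher (orange, to the right) at 7.5 than at 5 µM CHIR at day 11, in percent. Dashed lines mark the shares over all genes, 3.3% lower and 3.22% higher. Mitosis genes reach 72% higher and hypoxia genes 50% lower, and 7 lists hold no passing member.

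The other genes of largest rise at no less than 5 CPM were FNDC1, TLL2 and SLC24A2. FNDC1, a matrix protein with fibronectin domains, had 20.8 and 13.2 CPM at 7.5 µM, against 2.59 and 1.91 CPM at 5 µM (2.89 ± 0.34, adjusted p = 0.00993). TLL2, a metalloprotease of the tolloid kind, had 9.79 and 2.69 CPM, against 1.13 and 0.431 CPM, and SLC24A2, a sodium, calcium and potassium exchanger, had 8.94 and 12.6 CPM, against 1.63 and 1.43 CPM. In all 3 the 7.5 µM libraries were above every lower arm. The largest fall was that of GPR4, a proton-sensing receptor whose entry overlaps OPA3 on the same strand, with 0.0798 and 0.346 CPM, against 2.03 and 12.1 CPM (−4.94 ± 0.70, adjusted p = 0.0119). ICAM5, an adhesion protein of neurons, had 0.399 and 0.665 CPM, against 3.10 and 8.48 CPM (−3.35 ± 0.41, adjusted p = 0.00993). ISG15, a ubiquitin-like protein induced by interferon, had 0.771 and 0.638 CPM, against 5.97 and 4.58 CPM (−2.90 ± 0.41, adjusted p = 0.0119). FOXS1, a forkhead factor, ESPN, an actin-bundling protein, and SNCB, β-synuclein, fell by 3.00, 2.98 and 2.85 on the log2 scale. FOXS1 and SNCB had adjusted p-values of 0.0558 and 0.0544 after the correction, and none of these 9 genes passed without 5 µM replicate 2.

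Markers of other cell types were checked by list, beside shares over all genes tested of 3.22% higher and 3.3% lower. Neural crest genes were 0 higher and 1 lower of 7 tested, with a summed level of 184 and 124 CPM at 7.5 µM, against 333 and 326 CPM at 5 µM. The gene that fell was NGFR, a neurotrophin receptor, with 140 and 69.2 CPM of these sums, against 282 and 238 CPM, and it did not pass after the correction (adjusted p = 0.168). The median log2 fold change of the list was −0.05, and SOX10, FOXD3 and TFAP2A were too low to be tested. Mesenchyme and vessel genes summed to 203 and 398 CPM, against 290 and 621 CPM, with COL1A2 the 1 of 9 that fell, and PECAM1, CDH5 and DCN were not tested. Epithelial and endodermal genes summed to 211 and 209 CPM, against 502 and 358 CPM, with CDH1 the 1 of 9 that fell (0.160 and 0.904 CPM, against 0.338 and 9.75 CPM) and SOX17, GATA4 and AFP not tested. None of 6 choroid plexus genes and none of 7 pluripotency genes passed, and NANOG, TDGF1, UTF1 and PRDM14 were too low to be tested. The part of such cells in the results above was not tested.

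Whether a change belongs to the last step of the dose series was asked of the step difference, 7.5 minus 5 µM less 5 minus 3 µM, in the same fit. By edgeR's quasi-likelihood test it called 0 of 18709 genes (0%), with 904 at an unadjusted p under 0.05, and DESeq2 with the block called 9. In the edgeR fit no gene can therefore be said to change at the top step alone, and both steps share the 5 µM libraries. FGFR3 had a log2 fold change of −3.38 for 7.5 over 5 µM and −1.22 for 5 over 3 µM (step difference −2.16, adjusted p = 0.841), and H19 had −3.19 and −0.70. ASPM had 2.32 and 0.49, and MKI67 had 1.85 and 0.65. The steps of ZIC1 were 3.56 and 2.83, and those of APCDD1 were 2.49 and 2.21. Of the genes that rose, 496 of 603 had both 7.5 µM libraries above all 6 others, and of those that fell, 435 of 618 had both below. Over all genes tested the shares were 13% above and 9.7% below. The genes were called for a difference between 7.5 and 5 µM, so much of this separation follows from the call and does not show a change at the top step alone. Without 7.5 µM replicate 2, which leaves the replicate 1 library that stood apart, the step difference called 704 genes.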

How the data were processed

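RNA-seq read counts per gene were used as deposited by the authors, 1 table per library. Tools listed in the submitters' processing notes are DESeq2 1.12.4, HTSeq 0.5.3, featureCounts 1.4.2 and STAR 2.4.2a, with hg19 as the build. How libraries were made, and whether counting used strand, is not given in the sources used here. Each day 11 table holds 57445 gene entries and 5 summary entries, 37.41% to 44.27% of all counts, which were left out. Gene counts came to 20.52 to 44.76 M per library. The day 16, day 30 and stem cell libraries were not analysed here.

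Under R 4.3.3, counts were fitted with edgeR 4.0.16, using limma 3.58.1. Libraries were scaled by TMM and genes kept by filterByExpr, then tested by glmQLFit (robust) and glmQLFTest over all 8 day 11 libraries with the replicate number as a block. P-values were adjusted by Benjamini-Hochberg, at 0.05. The code was tested on simulated data. Pairing by number was asked for by the comparison. Same-numbered deviations from the arm means correlated at 0.64 to 0.85 in the 6 pairs of arms, and the sample descriptions carry 1 code for replicate 1 and another for replicate 2. Pair ratios use a prior count of 1. CPM are TMM-scaled, SE is the log2 fold change over the root of F, and intervals and floors cover counting error only. Genes that share reads with overlapping entries are uncertain.

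The GC and length correction subtracts smooth terms (mgcv 1.9.3) per library, with values for 97.3% of tested genes from GENCODE 29, matched by identifier. Gene coordinates on hg19 are not given, since that annotation is not on that build. The positions printed with the promoter sequences are on GRCh38.p14. Promoter sequences are RefSeq's, matched by symbol, for 11128 of the genes tested.

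Named genes are the 12 higher and 12 lower of largest passing fold change with at least 5 CPM in the higher arm and the same sign in both pairs, up to 4 passing members of each of 31 lists, and 19 fixed genes, 81 in all. Clone-style names were counted and not named, and some genes that the rule or the lists hold are not reported here. Other genes are given as members of their list, and those named singly outside the rule were chosen after their values were seen. The members and lists were chosen with earlier results of these data known. Alternatives were the fit without the block, with 4 libraries, with DESeq2 1.42.0 or its size factors, without the count filter, without robust estimation, and without each library.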

Additional observations from a re-analysis of the deposited data

How the results depend on the processing

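The count of genes passing between 7.5 and 5 µM was 1221 (603 higher, 618 lower). It was 0 without the replicate block (0 higher, 0 lower), where all 1221 kept their sign. It was 2463 with the 4 libraries only (1124 higher, 1339 lower), 3136 with no filter on low counts (1686 and 1450), 2759 with DESeq2 (1251 and 1508) and 743 with the GC and length correction (318 higher, 425 lower). DESeq2's size factors gave 1359 and the fit without robust estimation 1312. Leaving out 1 library gave 5 to 5828 in all, 0 to 3169 higher and 5 to 2659 lower. The step difference called 0 genes, 26 with no filter, 9 with DESeq2, and 0 to 704 when 1 library was left out. The cause of these shifts was not tested. Of the 67 named genes that passed, none passed without the block, 53 after the correction, 54 without 7.5 µM replicate 1 and 62 without 7.5 µM replicate 2. Without 5 µM replicate 1, 9 passed, and without 5 µM replicate 2, 4 did. All kept their sign under every alternative that gave them a value. HOXB3 was not tested without 7.5 µM replicate 1, and 2 genes had no adjusted p from DESeq2. Among genes that did not pass, some fold changes turned round. After the correction the log2 fold change was 0.31 for FOXA2 and 0.033 for TUBB3. Leaving out 1 library gave −0.60 to 0.35 for FOXA2, −0.38 to 1.56 for SHH, −0.10 to 0.83 for SP5, −0.056 to 0.35 for LEF1, −0.13 to 0.56 for CCND1, −0.54 to 0.28 for SOX2, −1.17 to 0.070 for TUBB3, −2.12 to 0.13 for PAX6 and −0.26 to 1.23 for CDX2. With 2 libraries an arm, small differences cannot be told from the spread.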

Other observations

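Imprinted genes, genes of homologous recombination and the Fanconi pathway, and FGF receptors were looked at as added groups after their values were seen. They are given as counts and values with no test of the group. DLK1 and CDKN1C are also members of the lists. Of 17 imprinted genes tested, 6 were lower at 7.5 than at 5 µM, against 3.3% of all genes, and none was higher. After the GC and length correction 5 were lower, against 2.33% of all genes, and NNAT no longer passed. Beside H19, DLK1 and CDKN1C these were MEG3, MEST and NNAT. MEG3, the maternally expressed RNA next to DLK1, had 0.692 and 1.41 CPM at 7.5 µM, against 2.25 and 4.90 CPM at 5 µM (log2 fold change −1.75, adjusted p = 0.035). MEST, a hydrolase gene, had 220 and 255 CPM, against 425 and 534 CPM (−1.01, adjusted p = 0.049). IGF2, the growth factor gene next to H19, had 27.1 and 44.8 CPM, against 55.2 and 68.3 CPM (−0.85, adjusted p = 0.294), and PEG10 had 628 and 876 CPM, against 511 and 1195 CPM (−0.02). Other members went the other way without passing. PLAGL1 had 71.07 and 66.24 CPM, against 21.45 and 40.26 CPM (1.31, adjusted p = 0.0588), and GRB10 had a log2 fold change of 0.57 (adjusted p = 0.142). Both were above all 6 lower libraries at 7.5 µM. The median of the group was −0.925.

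Of 17 genes of homologous recombination and the Fanconi pathway, 8 were higher at 7.5 µM, against 3.22% of all genes, and none was lower. After the correction 7 were higher, against 1.75% of all genes, 6 of them among the 8. BRCA1 had 61.3 and 74.5 CPM at 7.5 µM, against 16.8 and 28.95 CPM at 5 µM (1.63, adjusted p = 0.017). FANCD2 had 96.3 and 99.3 CPM, against 34.9 and 54.6 CPM (1.17, adjusted p = 0.031), and did not pass after the correction (adjusted p = 0.051). Among the 4 FGF receptors, FGFR4 was lower together with FGFR3, with 1.38 and 0.824 CPM, against 3.88 and 5.01 CPM (−2.11, adjusted p = 0.029), and did not pass after the correction (adjusted p = 0.056). FGFR1 had 369 and 370 CPM, against 357 and 472 CPM (−0.15, adjusted p = 0.728).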
